A study of Saccharomyces cerevisiae with 8 samples.

Results

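The response of wild-type budding yeast (Saccharomyces cerevisiae) to rapamycin was read from 4 small-RNA libraries, of 8 in the series. There were 2 libraries of rapamycin-treated wild-type cells (WT) and 2 of untreated WT cells, and all of their annotated features were compared. The treated cells received 100 nM rapamycin for 30 min. All cells grew in YPD, a rich medium with yeast extract, peptone and glucose. The labels give the strain of both WT groups as UBC9, the normal allele of the gene for the SUMO-conjugating enzyme. The other 4 libraries came from a strain with the mutant allele ubc9-1, with rapamycin (2 libraries) and without it (2 libraries), and are used here to share the estimate of spread and for one comparison of responses. RNA of 50 to 100 nt was selected from total RNA, so what is counted over an mRNA gene are pieces of it, whose number may differ from the level of intact mRNA. The labels do not say whether replicates were separate cultures, so p-values reflect the spread among these libraries alone, and that spread may be technical. In bulk RNA, fewer cells of a kind and less RNA per cell cannot be told apart.

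Rapamycin inhibits TORC1, the kinase complex that couples growth to nutrient supply. When TORC1 is active, yeast cells make ribosomes and keep genes for poor nitrogen sources silent, a state called nitrogen catabolite repression. When TORC1 is inhibited, the GATA factors Gln3 and Gat1 enter the nucleus and turn on genes for uptake and breakdown of other nitrogen sources, the retrograde regulators Rtg1 and Rtg3 turn on genes that feed glutamate synthesis, and repressors such as Dot6, Tod6 and Stb3 act on genes of ribosome assembly. This is background and not a result of these libraries.

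The treated libraries held 20948512 and 21061460 assigned counts, and the untreated libraries 16173246 and 16579766. Replicate libraries were not copies of each other. Their counts gave a chi-square of 134 (treated) and 109 (untreated WT) for each degree of freedom, and they correlated across features with a Pearson r of 0.974 in treated and 0.95 in untreated WT. The TMM factors, which scale library totals so that most features do not change, were 1.11 and 1.37 in treated WT and 0.695 and 1.09 in untreated WT. Untreated replicate 1 therefore stood apart in its factor. Values per library are given below as CPM, counts scaled to a common total with the TMM factors, and levels of different genes are not compared, since CPM takes no account of length. The strains' mating type is not given in the labels. The 7 a-specific genes summed to 167 and 188 CPM in treated WT and 159 and 197 CPM in untreated WT, and the 4 alpha-specific genes to 6.67 and 6.84 CPM in treated WT and 2.49 and 4.49 CPM in untreated WT, with a defining alpha gene at 0 in 1 of the treated and both of the untreated libraries.

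Of 7126 features, 6115 passed the filter on low counts and were tested with the edgeR quasi-likelihood test. With rapamycin, 536 features were called higher (8.77% of those tested) and 712 lower (11.6%) at a Benjamini-Hochberg adjusted p under 0.05. Together these were 20.4% of all features tested, and 2110 features had an unadjusted p under 0.05. Without nuclear tRNA genes, 5851 features were tested, of which 536 rose and 563 fell. Leaving aside 10 called features with a group at 0, whose fitted fold depends on the prior count, 483 rose and 689 fell by more than 2-fold and 107 rose and 316 fell by more than 4-fold. Beyond 8-fold 39 rose and 85 fell, beyond 16-fold 14 rose and 13 fell, and beyond 32-fold 6 rose and 0 fell. The smallest change called was 0.81 on the log2 scale. Of the 1248 features called, 1247 had both treated libraries on one side of both untreated libraries. In all features tested, both treated libraries lay above both untreated ones in 32.2% and below them in 28%.

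The balance of rises and falls depended on the scaling. Over all features the median log2 change was 0.04 with TMM factors, 0.52 with library totals and 0.28 with factors taken from snoRNA features. With library totals, 583 features were called higher and 265 lower, and with snoRNA factors 349 and 374. Directions below are those with TMM factors, except where a different scaling is stated. Single libraries also moved the counts. Without treated replicate 2 the fit called 241 features higher and 325 lower, and without treated replicate 1 it called 298 higher and 498 lower.

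**Figure D1:**
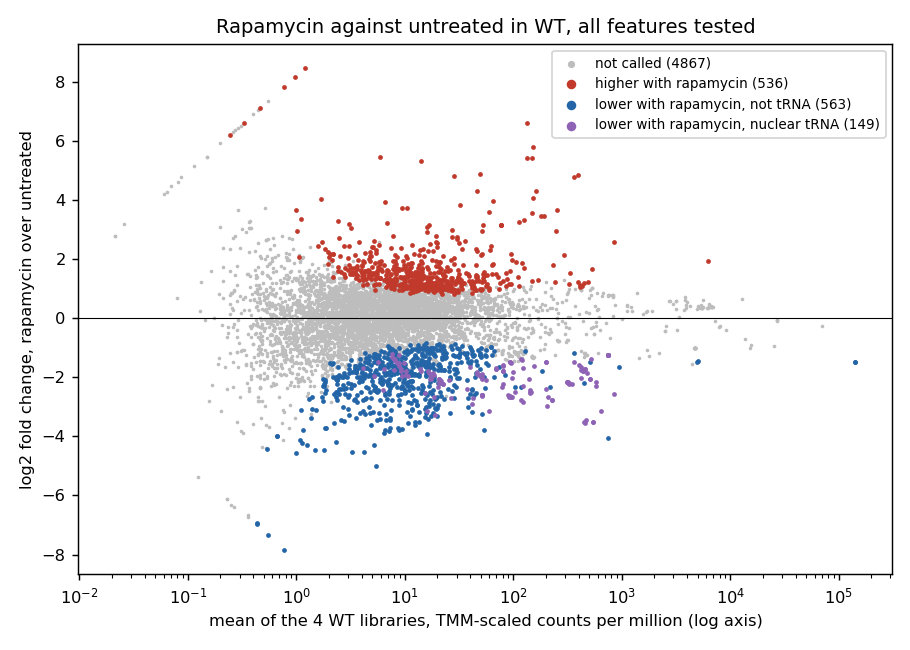
Each point is 1 of the 6115 features tested. The x axis is the mean TMM-scaled CPM of the 4 WT libraries on a log axis, and the y axis is the log2 fold change of rapamycin-treated over untreated WT. Red marks the 536 features called higher, blue the 563 called lower that are not nuclear tRNA genes, violet the nuclear tRNA genes called lower, and grey the features not called. The straight lines of points at the upper and lower left are features with a group at 0.

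Genes for poor nitrogen sources led the rises chosen by rule. GAP1, the general amino acid permease (YKR039W, chromosome XI, 515063 to 516871, build R64), had 258 and 341 CPM in treated WT, against 8.19 and 2.88 CPM in untreated WT. It rose by 5.78 on the log2 scale (SE 0.52, adjusted p = 1.5e-05). DAL5, an allantoate and dipeptide permease (YJR152W, chromosome X, 719666 to 721297), had 213 and 318 CPM in treated WT, against 4.63 and 1.05 CPM in untreated WT, and rose by 6.60 (SE 0.62, adjusted p = 2.2e-05). MEP2, an ammonium permease and sensor (YNL142W, chromosome XIV, 357453 to 358952), had 274 and 303 CPM in treated WT, against 7.74 and 5.71 CPM in untreated WT. DAL80, a GATA repressor that is itself under nitrogen control, had 8.64 and 14.7 CPM in treated WT, against 0 and 0.444 CPM in untreated WT. Its rise of 5.44 (SE 0.87, adjusted p = 0.00069) rests on few untreated counts, and the gene overlaps YKR033C on the chromosome, whose reads cannot be told apart without strand. In each of these genes both treated libraries lay above both untreated ones, which the rule for naming them required.

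The promoters shown were chosen for motifs that GATA factors and the assembly-gene repressors are known to bind. The first 3 are the largest rises by rule with at least 2 GATAAG motifs, so DAL5 and MEP2, larger rises than DAL7, were passed over. The last 3 are the largest falls by rule among assembly factors with both a PAC and an RRPE motif. Of the 15 largest rises by rule 5 had at least 2 GATAAG motifs, and of the 15 largest falls 9 had both other motifs. The sequences are the 300 bases before the annotated gene start, which is the start codon in this annotation, read from the RefSeq genome of build R64 on the gene's strand. In the first 3, capitals mark GATAAG or its reverse complement CTTATC. GAP1 is on the plus strand at chrXI:514763-515062, DAL80 on the plus strand at chrXI:506598-506897, and DAL7, malate synthase of the allantoin pathway, on the minus strand at chrIX:414680-414979. In the last 3, capitals mark the PAC motif GATGAG or CTCATC and the RRPE motif AAAATTTT. BRX1 is on the minus strand at chrXV:186724-187023, LTV1 on the plus strand at chrXI:176481-176780, and NOP8 on the plus strand at chrXV:52798-53097.
GAP1: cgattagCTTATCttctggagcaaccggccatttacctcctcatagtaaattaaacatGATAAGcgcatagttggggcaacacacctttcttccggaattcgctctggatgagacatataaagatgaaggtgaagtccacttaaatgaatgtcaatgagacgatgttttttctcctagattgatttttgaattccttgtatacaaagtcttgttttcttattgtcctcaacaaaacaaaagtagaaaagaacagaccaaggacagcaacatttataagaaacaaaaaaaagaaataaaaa
DAL80: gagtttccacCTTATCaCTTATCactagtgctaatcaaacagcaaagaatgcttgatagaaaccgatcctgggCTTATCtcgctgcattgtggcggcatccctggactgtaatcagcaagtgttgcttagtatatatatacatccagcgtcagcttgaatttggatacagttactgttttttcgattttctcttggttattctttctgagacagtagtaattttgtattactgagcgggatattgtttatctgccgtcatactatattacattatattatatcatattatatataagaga
DAL7: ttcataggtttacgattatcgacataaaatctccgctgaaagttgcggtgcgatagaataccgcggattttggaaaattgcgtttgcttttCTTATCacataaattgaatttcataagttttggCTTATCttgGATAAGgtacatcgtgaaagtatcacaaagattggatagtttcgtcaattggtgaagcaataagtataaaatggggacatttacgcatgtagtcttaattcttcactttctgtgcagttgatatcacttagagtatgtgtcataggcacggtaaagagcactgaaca
BRX1: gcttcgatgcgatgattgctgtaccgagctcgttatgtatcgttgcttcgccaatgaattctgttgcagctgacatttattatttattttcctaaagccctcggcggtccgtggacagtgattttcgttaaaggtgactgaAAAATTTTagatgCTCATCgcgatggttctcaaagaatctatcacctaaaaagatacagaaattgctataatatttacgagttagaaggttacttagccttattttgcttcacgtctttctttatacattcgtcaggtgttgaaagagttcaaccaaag
LTV1: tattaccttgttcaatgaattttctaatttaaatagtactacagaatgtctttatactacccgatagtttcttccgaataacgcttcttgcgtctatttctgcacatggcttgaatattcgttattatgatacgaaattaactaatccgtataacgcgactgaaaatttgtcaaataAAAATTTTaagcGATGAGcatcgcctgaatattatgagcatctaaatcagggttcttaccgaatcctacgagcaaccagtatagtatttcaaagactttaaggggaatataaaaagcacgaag
NOP8: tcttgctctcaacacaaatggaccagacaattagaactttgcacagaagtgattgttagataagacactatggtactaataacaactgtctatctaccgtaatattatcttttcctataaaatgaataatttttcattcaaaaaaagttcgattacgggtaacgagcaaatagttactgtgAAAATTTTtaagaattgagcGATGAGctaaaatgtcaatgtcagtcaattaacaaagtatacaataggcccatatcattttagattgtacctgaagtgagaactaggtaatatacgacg
GAP1 holds 2 GATA motifs and DAL80 and DAL7 hold 3 each, and BRX1, LTV1 and NOP8 each hold 1 PAC and 1 RRPE motif, which lie near each other. The presence of these motifs follows from the choice of promoters. GAP1 also holds 1 PAC motif and NOP8 1 GATA motif, both left in small letters. A match is a description of letters and not a bound site.

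The allantoin pathway, which turns a purine breakdown product into urea and ammonium, rose as a group of neighbours. DAL7 had 229 and 292 CPM in treated WT, against 5.16 and 6.93 CPM in untreated WT, and overlaps YIR030W-A. DAL2, allantoicase, had 28.4 and 26.4 CPM in treated WT, against 0.712 and 0.666 CPM in untreated WT, a rise of 5.31 (SE 0.45). DAL1, allantoinase, rose by 3.92 (SE 0.44), DAL3, ureidoglycolate lyase, by 3.74 (SE 0.44) and DAL4, the allantoin permease, by 3.71 (SE 0.37). All 5 lie on chromosome IX. Among protein-coding features tested, DAL1, DAL4 and DAL2 form an unbroken run of called genes there from 406260 to 411838. DAL7, DAL3, MGA2 and LYS1 form another from 413015 to 420736. The next steps, urea uptake and breakdown, rose too. DUR3, the urea transporter, rose by 4.89 (SE 0.40), and DUR1,2, urea amidolyase, by 4.77 (SE 0.40), with 699 and 712 CPM in treated WT, against 31.3 and 20.4 CPM in untreated WT.

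Of 43 genes in the list of nitrogen catabolite repression, all were tested, 34 rose and none fell. Their median log2 fold change was 2.76, against 0.04 for all features. Nitrogen sources beyond allantoin were covered. UGA4, the permease for GABA, had 56.5 and 53.5 CPM in treated WT, against 3.03 and 1.05 CPM in untreated WT. UGA1, GABA transaminase, rose by 3.82, PUT4, the proline permease, by 3.14, CAR1, arginase, by 2.76, and MEP1, an ammonium permease, by 2.53. The asparaginase genes ASP3-1 to ASP3-4 each rose by 3.14, but they are near-identical copies that share reads, and the counts above hold all 4. With them counted once, 31 of 40 genes rose, at a median of 2.71. Of the GATA factors, the activator GAT1 rose by 2.76 and the repressor GZF3 by 1.29. The activator GLN3 had 19.1 and 12.8 CPM in treated WT, against 8.99 and 4.99 CPM in untreated WT, and its difference of 1.20 did not pass (adjusted p = 0.0557). The 9 members that did not pass were UGA2, ATG14, PRB1, NPR2, GLN3, VID30, DCG1, AVT1 and MEP3, all with positive estimates between 0.07 and 2.66. Between 31 and 34 members were called when 1 WT library at a time was left out.

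The step from ammonium to glutamate and glutamine rose throughout. All 5 genes tested rose, with a median of 2.57. GDH2, the glutamate dehydrogenase that releases ammonium, had 260 and 291 CPM in treated WT, against 29.4 and 17.9 CPM in untreated WT, a rise of 3.55 (SE 0.38, adjusted p = 3.9e-05). GDH1, which makes glutamate, had 330 and 547 CPM in treated WT, against 55 and 57.5 CPM in untreated WT, a rise of 2.96 (SE 0.39). GLN1, glutamine synthetase, rose by 2.57, and GLT1, glutamate synthase, by 2.12. Enzymes for both release and capture of ammonium were thus among the rises, and all 5 calls held without any 1 WT library.

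Among 20 other amino acid and peptide permeases, 5 rose and 3 fell, and the median was 0.04. PTR2, the peptide transporter, had 419 and 510 CPM in treated WT, against 36.9 and 36.3 CPM in untreated WT, a rise of 3.66 (SE 0.39). AGP1, a permease of broad range, had 210 and 246 CPM in treated WT, against 23.2 and 22.1 CPM in untreated WT, a rise of 3.33 (SE 0.37). DIP5, for acidic amino acids, rose by 3.26, CAN1, for arginine, by 3.14, and MUP3, a low-affinity methionine permease, by 2.45. The falls were TAT1, BAP2 and MUP1. TAT1, for tyrosine and branched-chain amino acids, had 10.19 and 10.04 CPM in treated WT, against 47.7 and 37.6 CPM in untreated WT, and fell by 2.07 (SE 0.31). BAP2, for branched-chain amino acids, fell by 1.72 (SE 0.29), and MUP1, the high-affinity methionine permease, by 1.27. With library totals TAT1 was the 1 fall of the 3 that passed.

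**Figure D2:**
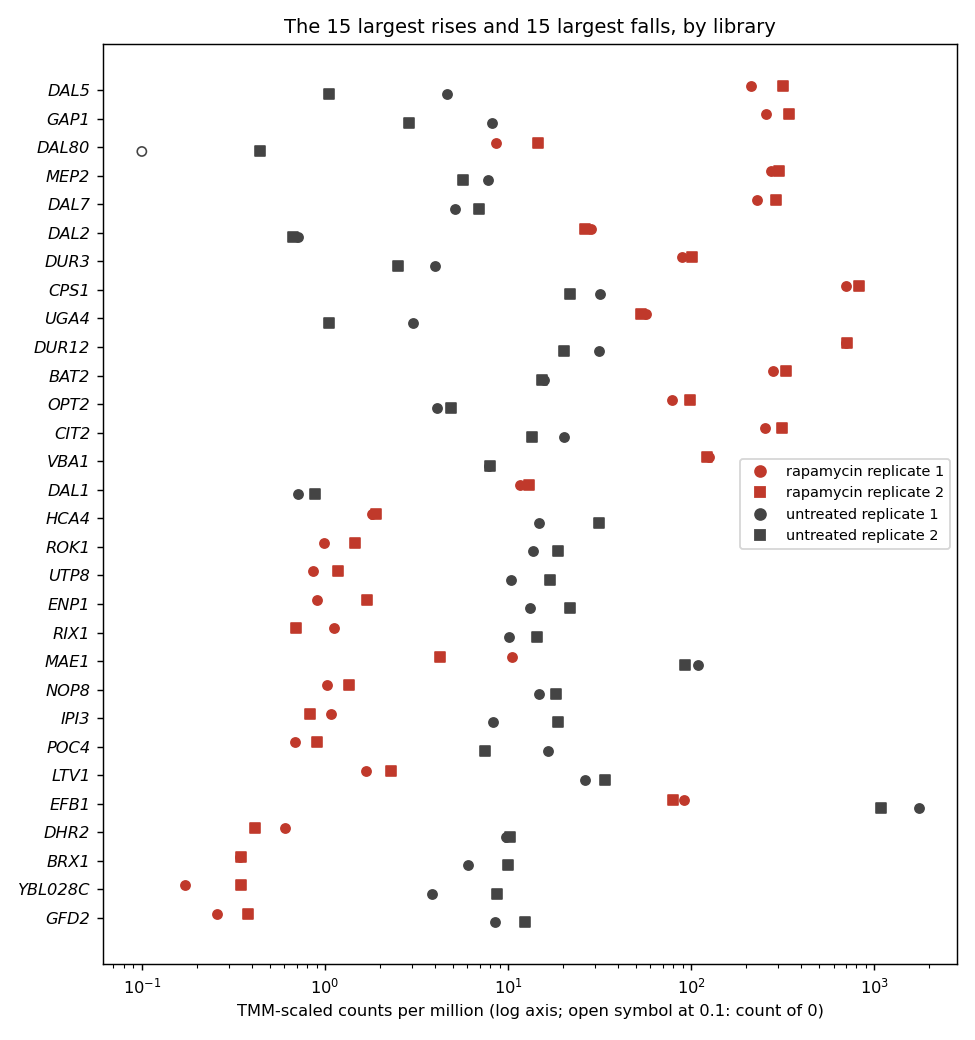
Rows are the 15 features with the largest rises and the 15 with the largest falls chosen by rule, and the x axis is the TMM-scaled CPM of each WT library on a log axis. Red symbols are rapamycin-treated and dark symbols untreated, circles replicate 1 and squares replicate 2. In all 30 rows both treated libraries lie on one side of both untreated ones, which the rule required.

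Among the 15 largest rises by rule were also a vacuolar peptidase, transporters and an aminotransferase. CPS1, a vacuolar carboxypeptidase that frees amino acids from peptides, had 702 and 829 CPM in treated WT, against 31.7 and 21.7 CPM in untreated WT, a rise of 4.84 (SE 0.43). OPT2, an oligopeptide transporter, rose by 4.29 (SE 0.32). VBA1, a vacuolar permease for basic amino acids, had 125 and 122 CPM in treated WT, against 7.83 and 7.99 CPM in untreated WT, a rise of 3.96 (SE 0.35). BAT2, the cytosolic branched-chain aminotransferase, had 280 and 331 CPM in treated WT, against 15.7 and 15.4 CPM in untreated WT, a rise of 4.30 (SE 0.37). All 30 of the largest changes by rule kept their call without any 1 WT library.

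Citric acid cycle and retrograde genes rose, among them those of the arm that leads to 2-oxoglutarate, the carbon skeleton of glutamate. Of 24 genes, 14 rose and 3 fell, with a median of 1.14. CIT2, the peroxisomal citrate synthase and the usual reporter of the retrograde pathway, had 255 and 316 CPM in treated WT, against 20.2 and 13.5 CPM in untreated WT, a rise of 4.08 (SE 0.43, adjusted p = 3.8e-05). PYC1, pyruvate carboxylase, had 371 and 336 CPM in treated WT, against 46.0 and 17.8 CPM in untreated WT, a rise of 3.47 (SE 0.45). DLD3, which converts D-2-hydroxyglutarate, rose by 3.47, CIT1, the mitochondrial citrate synthase, by 2.74, and ACO1, aconitase, by 1.91. IDP1 rose by 1.85, IDH1 by 1.09 and IDH2 by 0.88, which are isocitrate dehydrogenases of the mitochondrion. Among the genes that fell, IDP2, the cytosolic isocitrate dehydrogenase, fell by 1.69 (SE 0.39), and MDH2, the cytosolic malate dehydrogenase, fell by 1.47 (SE 0.39). None of the 3 falls was called with library totals. Without 1 WT library at a time, 8 to 10 members were called higher and 1 or 2 lower.

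Amino acid synthesis did not move as a block. In the arginine list 3 of 9 genes rose and 1 fell, with a median of 0.71. ARG4, argininosuccinate lyase, had 98.6 and 105 CPM in treated WT, against 23.2 and 17.5 CPM in untreated WT, a rise of 2.32 (SE 0.31). ARG3, ornithine carbamoyltransferase, fell by 1.98 (SE 0.45). Of 9 lysine genes 3 rose, led by LYS1, saccharopine dehydrogenase, at 1.83 (SE 0.42) and LYS12, homoisocitrate dehydrogenase, at 0.95 (SE 0.30). Of 7 histidine genes 3 rose, with HIS2, histidinol phosphatase, at 1.93 (SE 0.34) and HIS3 at 1.09 (SE 0.32). Of 14 aromatic genes 1 rose. It was ARO9, an aromatic aminotransferase of the breakdown pathway, at 2.31 (SE 0.39). Of 27 sulfate and methionine genes 5 rose and none fell, among them MET6, methionine synthase, at 1.41 (SE 0.32) and SAM2, S-adenosylmethionine synthetase, at 1.35 (SE 0.28).

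These calls were less firm than those of the nitrogen genes. With each WT library left out in turn, the arginine list had 1 to 3 rises and no or 1 fall, the lysine list 0 to 2 rises, the histidine list 1 and the sulfur list 1 to 4. The log2 fold changes of LYS1 then lay between 1.30 and 2.33, of LYS12 between 0.69 and 1.23, of HIS3 between 0.95 and 1.22, and of MET6 between 1.32 and 1.51. Calls were lost in all 4 of these fits for HIS3, in 3 for LYS12, in 2 for LYS1 and in 1 for MET6 and ARG3. LYS12 and ARG3 were not called with library totals.

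Branched-chain amino acid genes split between isozymes. Of 12 genes, 2 rose and 3 fell, with a median of -0.63. BAT2 rose while BAT1, its mitochondrial partner of the synthesis pathway, had 13.7 and 10.9 CPM in treated WT, against 33.3 and 30.2 CPM in untreated WT, and fell by 1.37 (SE 0.30). LEU4, the main 2-isopropylmalate synthase, rose by 1.00 (SE 0.31), while LEU9, the second form of that enzyme, had 4.77 and 5.56 CPM in treated WT, against 32.7 and 29.0 CPM in untreated WT, and fell by 2.57 (SE 0.32). ILV5, acetohydroxyacid reductoisomerase, fell by 1.18. LEU4 lost its call in each fit without 1 WT library, at values between 0.81 and 1.17, and BAT1 without treated replicate 2 and with library totals. These pairs were singled out after their values were seen.

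Among nucleotide genes more fell than rose with TMM factors, while with library totals the purine list had as many rises as falls. Of 21 purine genes, 3 rose and 7 fell, with a median of -0.26, which was 0.14 with library totals. AAH1, adenine deaminase, had 0.946 and 1.598 CPM in treated WT, against 9.70 and 14.5 CPM in untreated WT, and fell by 3.24 (SE 0.44, adjusted p = 0.00023). ADE2, an enzyme of purine ring synthesis, had 0 counts in both treated libraries and 14 and 9 counts in untreated WT, so it was at least 13.6-fold lower, against a floor of 3 counts over the group. IMD4 and IMD3, forms of IMP dehydrogenase, fell by 2.34 and 0.97, and PRS4 and PRS3, which make phosphoribosyl pyrophosphate, by 2.51 and 1.502. The 2 highest of the 3 rises were in folate-linked steps. ADE17, which closes the purine ring, had 18.2 and 30.4 CPM in treated WT, against 5.87 and 3.88 CPM in untreated WT, a rise of 2.33 (SE 0.36), and ADE3, a folate enzyme that supplies it, rose by 2.18 (SE 0.35). Of 11 pyrimidine genes, 4 fell and none rose, with a median of -0.55. URA7, CTP synthase, had 2.84 and 2.71 CPM in treated WT, against 33.1 and 23.3 CPM in untreated WT, and fell by 3.34 (SE 0.32). URA1, dihydroorotate dehydrogenase, fell by 3.30 (SE 0.34). Without 1 WT library at a time, 3 to 9 purine and 2 to 4 pyrimidine genes were called lower, and with library totals 3 and 2.

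**Figure D3:**
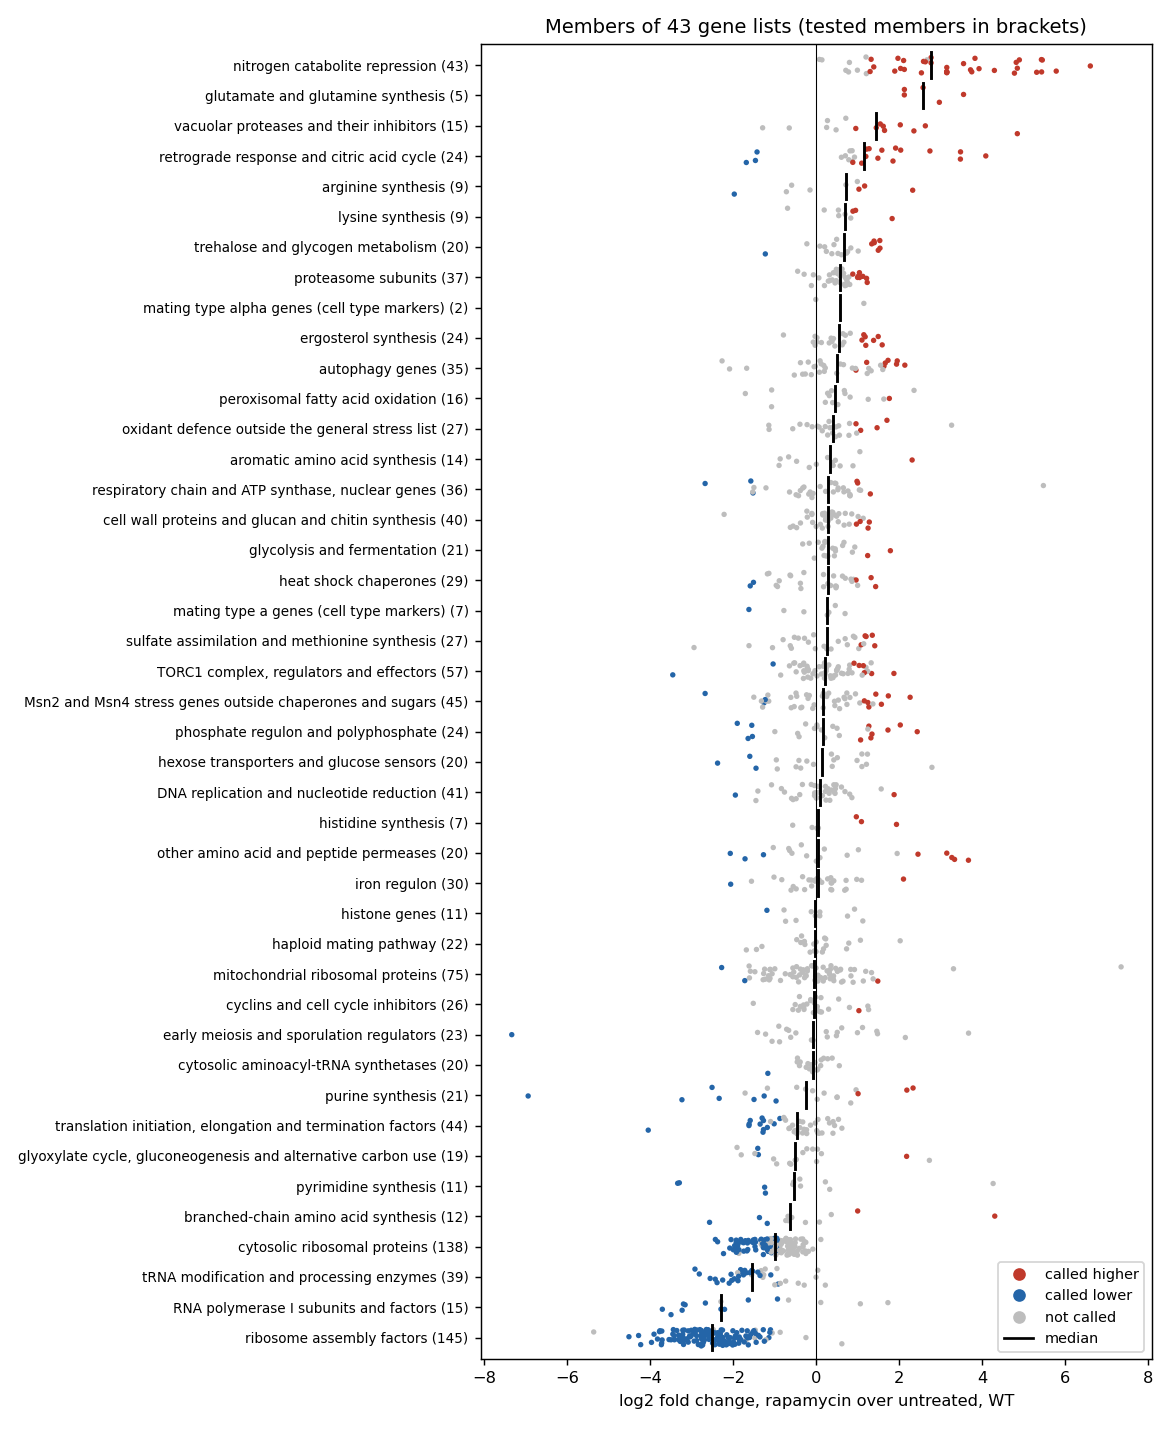
Each row is 1 of 43 gene lists with its number of tested members in brackets, and each point is a member's log2 fold change of rapamycin-treated over untreated WT. Red points were called higher, blue lower and grey not called, and the black bar is the list's median. Nitrogen and glutamate genes lie highest, with medians of 2.76 and 2.57, and ribosome assembly factors lowest, with a median of -2.52. ADE2 in the purine row and SPO13 in the meiosis row have a group at 0, so their places depend on the prior count, and list medians were the same with such genes at their bounds.

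Outside nuclear tRNA, ribosome assembly factors were the list with the most falls. Of 145 assembly factors tested, 135 fell and none rose, and their median log2 fold change was -2.52. BRX1, a factor of the large subunit (YOL077C, chromosome XV, 185848 to 186723), had 0.344 and 0.347 CPM in treated WT, against 6.05 and 9.98 CPM in untreated WT, and fell by 4.52 (SE 0.57, adjusted p = 0.00014). DHR2, an RNA helicase for 18S rRNA, had 0.602 and 0.417 CPM in treated WT, against 9.70 and 10.2 CPM in untreated WT, and fell by 4.28 (SE 0.45). LTV1, a factor for small subunit export (YKL143W, chromosome XI, 176781 to 178172), had 1.68 and 2.29 CPM in treated WT, against 26.3 and 33.8 CPM in untreated WT, and fell by 3.91 (SE 0.34, adjusted p = 1.3e-05).

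Factors of both ribosomal subunits were among the falls. NOP8, for 60S maturation (YOL144W, chromosome XV, 53098 to 54552), fell by 3.78 (SE 0.38), and IPI3 and RIX1, parts of one 60S complex, by 3.83 (SE 0.48) and 3.77 (SE 0.48). ENP1, for 40S export, fell by 3.73 (SE 0.42), UTP8, of the early small subunit complex, by 3.72 (SE 0.50), and the helicases ROK1 and HCA4 by 3.72 (SE 0.45) and 3.63 (SE 0.39). Over these 7 genes the highest treated value was 1.91 CPM, in HCA4, and the lowest untreated value 8.28 CPM, in IPI3. The smallest falls called were ESF1 at -1.11, SQT1 at -1.12 and SSF2 at -1.14. The 10 members that did not pass were HMO1, NOP16, LOC1, LSG1, RPF1, GAR1, IMP3, FPR3, JJJ1 and RRP15, of which HMO1, an HMG-box protein of rDNA chromatin, alone had a positive estimate, at 0.61. When single WT libraries were left out, 108 to 132 factors were called lower. With library totals, 97 were called and the median was -2.11.

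RNA polymerase I, which transcribes the rRNA precursor, followed. Of 15 subunits and factors 10 fell and none rose, with a median of -2.30. RPA49 had 2.19 and 2.22 CPM in treated WT, against 16.3 and 33.7 CPM in untreated WT, and fell by 3.50 (SE 0.45). RPA12 fell by 3.71 (SE 0.73), the largest subunits RPA190 and RPA135 by 3.23 and 3.16, and RRN3, the initiation factor that couples the enzyme to growth, by 1.64. RRN5, RRN9, RRN10, UAF30 and RPA14 did not pass, and the first 3 had positive estimates. With library totals 5 members were called, and without 1 WT library at a time 5 to 9.

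Enzymes that modify or process tRNA fell in 24 of 39 cases, and none rose. Their median was -1.56. GCD10, a subunit of the tRNA adenine methyltransferase, had 2.45 and 1.63 CPM in treated WT, against 20.3 and 10.8 CPM in untreated WT, and fell by 2.93 (SE 0.46). Its partner GCD14 fell by 2.06. DUS3, a dihydrouridine synthase, had 2.67 and 2.64 CPM in treated WT, against 23.5 and 14.2 CPM in untreated WT, and fell by 2.82 (SE 0.40). TRM8 and TRM82, both parts of another methyltransferase, fell by 2.56 and 2.44, and NCS2 and ELP3, of the wobble uridine pathway, by 2.39 and 2.10. With library totals 4 members were called, and without 1 WT library at a time 12 to 23.

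Translation itself moved less. Of 44 initiation, elongation and termination factors tested 12 fell and none rose, with a median of -0.46. EFB1, the exchange factor for elongation factor eEF1A (YAL003W, chromosome I, 142174 to 143160), had 91.7 and 80.0 CPM in treated WT, against 1749 and 1096 CPM in untreated WT, and fell by 4.05 (SE 0.40, adjusted p = 3.2e-05). EFB1 overlaps the snoRNA snR18, which lies in its intron, so its short fragments cannot be assigned to mRNA alone. RLI1, the recycling factor, fell by 1.62 (SE 0.33), SUI1 by 1.62, and the subunits of initiation factor 3 NIP1, RPG1 and PRT1 by 1.31, 1.29 and 1.18. With library totals 1 factor was called lower, RLI1 was not, and the median was 0.04. Without 1 WT library at a time, 4 to 10 were called. Of 20 cytosolic aminoacyl-tRNA synthetases, 1 fell. It was GLN4, for glutamine, at -1.17 (SE 0.30), which was not called with library totals and lost its call without 3 of the 4 WT libraries, at values between -1.38 and -0.95 over the 4. The list's median was -0.09 with TMM and 0.36 with library totals.

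Ribosomal protein genes fell by less than the factors that assemble their products. Of 138 genes 59 fell and none rose, with a median of -0.99, and 137 had a negative estimate. RPL28 had 4.73 and 4.38 CPM in treated WT, against 20.02 and 29.1 CPM in untreated WT, and fell by 2.43 (SE 0.33), though it overlaps YGL102C. RPL26A had 2.79 and 1.91 CPM in treated WT, against 9.97 and 14.4 CPM in untreated WT, and fell by 2.38 (SE 0.40). Genes with an intron held most of the falls. The counted features run from gene start to gene end, intron included, at 961 bases in RPL28 and 831 in RPL26A. Counts over such genes may therefore mix fragments of intron and of spliced mRNA, and the part of each was not tested. Of 89 intron-containing ribosomal protein genes 51 fell (57.3%, median -1.16), against 8 of 49 without an intron (16.3%, median -0.69). Of 178 other intron-containing genes 16 rose and 13 fell, near the shares of other genes without an intron (514 and 474 of 5245). Many ribosomal proteins have a paralogous gene copy with near-identical sequence, so reads may be split or shared between copies. With library totals 5 genes were called lower at a median of -0.57, and without 1 WT library at a time 20 to 72.

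The motifs printed above were counted in the promoters of all 5561 protein-coding features tested, of which 9.53% rose and 9.82% fell. Each was searched on both strands in the 300 bases before the gene start, and motifs could overlap. GATAAG stood in 27.9% of promoters of genes called higher, in 8.61% of those called lower and in 14.9% of all. GATGAG stood in 10.6% of promoters of genes called higher, in 53.5% of those called lower and in 18.6% of all, and AAAATTTT, in the same order, in 1.70%, 41.4% and 9.69%. Genes with both of these motifs fell more often than genes with neither. Of 260 such genes 168 fell (64.6%) and 1 rose, at a median of -1.98, while of 4247 genes with neither 196 fell (4.62%) and 466 rose. Many of the 260 are assembly factors. Of the 161 outside the assembly list 73 fell (45.3%) and 1 rose, at a median of -1.16.

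Genes with 2 or more GATAAG motifs numbered 97, of which 33 rose (34.0%) and 4 fell, at a median of 0.74. Outside the nitrogen list there were 85, of which 23 rose (27.1%) and 4 fell. Of the 15 largest rises by rule 8 had a GATAAG motif, and of the 15 largest falls 12 had a PAC motif, 12 an RRPE motif and 9 both. The stress element AGGGG stood in 34.5% of promoters of genes called higher, in 14.5% of those called lower and in 22.7% of all. The Gcn4 element TGACTCA stood, in the same order, in 4.91%, 2.38% and 2.72%, the retrograde element GTCAC in 32.1%, 24.9% and 26.6%, and the heat shock element TTCNNGAA in 10.9%, 12.1% and 13.2%. CACGTG stood in 3.96%, 2.93% and 3.63%, and ACGCGT, the element of genes expressed before S phase, in 2.64%, 1.28% and 3.56%. These shares describe letters in fixed windows and carry no test.

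**Figure D4:**
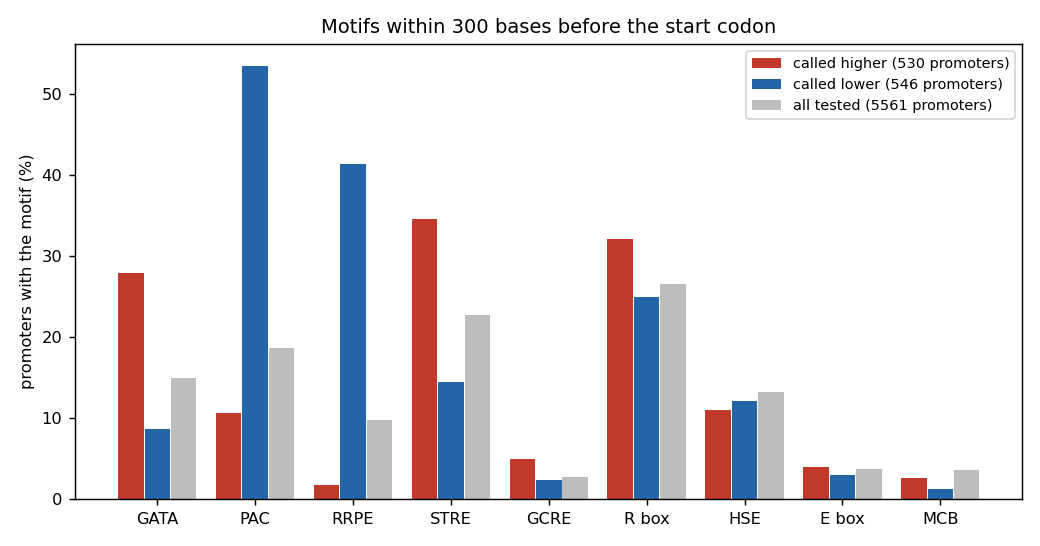
Bars give the percent of promoters (300 bases before the gene start) that hold each of 9 motifs, for protein-coding genes called higher (red), called lower (blue) and all tested (grey). PAC and RRPE bars are highest in genes called lower, at 53.5% and 41.4%, and GATA and STRE bars are highest in genes called higher, at 27.9% and 34.5%.

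Vacuolar breakdown genes rose. Of 15 vacuolar proteases and inhibitors tested 9 rose and none fell, with a median of 1.44. Besides CPS1, APE1, aminopeptidase I and the classical cargo of the Cvt pathway, had 52.7 and 70.6 CPM in treated WT, against 10.9 and 9.15 CPM in untreated WT, and rose by 2.63 (SE 0.32, adjusted p = 0.00011). ATG42, a carboxypeptidase, rose by 2.35, PHO8, the vacuolar phosphatase, by 2.02 (SE 0.37), PRC1, carboxypeptidase Y, by 1.54 and PEP4, the protease that activates the others, by 0.95. Of 35 autophagy genes tested 8 rose and none fell, with a median of 0.49. ATG9, the membrane protein of autophagosome formation, had 13.1 and 13.1 CPM in treated WT, against 4.98 and 1.22 CPM in untreated WT, a rise of 2.13 (SE 0.48), and ATG22, a vacuolar amino acid exporter, rose by 1.95 (SE 0.42). ATG19, the receptor for the APE1 cargo, rose by 1.93 and ATG2 by 1.73. In the 4 fits lacking a WT library, 7 to 9 protease genes and 5 to 8 autophagy genes were called.

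Proteasome subunits were called in the upward direction alone. Of 37 genes 8 rose and none fell, 33 had a positive estimate, and the median was 0.57. RPT5, a base ATPase, had 15.7 and 29.9 CPM in treated WT, against 9.43 and 10.04 CPM in untreated WT, a rise of 1.23 (SE 0.32), and RPN6, of the lid, rose by 1.21 (SE 0.31). These calls were not firm, since fewer members were called whichever WT library was left out. The list's median then lay between 0.49 and 0.65, RPT5 between 0.69 and 1.62 and RPN6 between 1.14 and 1.29. UBI4, the polyubiquitin gene, had 67.5 and 87.3 CPM in treated WT, against 22.7 and 9.82 CPM in untreated WT, and rose by 2.26 (SE 0.41).

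Stress genes were mixed. Of 45 targets of Msn2 and Msn4 outside chaperones and sugars 7 rose and 3 fell, with a median of 0.17. Besides UBI4, GRE2, a reductase, rose by 1.73 (SE 0.50), and ALD2 and ALD3, aldehyde dehydrogenases, by 1.57 and 1.43. GRX1, a glutaredoxin, fell by 1.26 (SE 0.38), DDR2 by 1.23 and SPG4 by 2.68 (SE 0.79). SPG4 had 0.645 and 0.278 CPM in treated WT, against 5.16 and 0.887 CPM in untreated WT, so its groups lay close, and none of the 3 falls was called with library totals. Of 29 chaperones 3 rose and 2 fell, with a median of 0.28. MDJ1, of the mitochondrion, rose by 1.43 (SE 0.32) and SSE2 by 1.32 (SE 0.36), while HSP12 fell by 1.52 (SE 0.39) and HSP30 by 1.59 (SE 0.54), of which neither fall was called with library totals. Without 1 WT library at a time, the stress list had 4 to 7 rises and 0 to 5 falls and the chaperones 1 or 2 rises and 0 to 6 falls. GRE2 then lay between 1.38 and 2.03, SPG4 between -3.48 and -0.99, HSP12 between -2.08 and -1.10 and HSP30 between -2.46 and -1.04. Calls were lost in 3 of the 4 fits for GRE2, GRX1 and SPG4, and in 2 for SSE2, HSP12 and HSP30.

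Storage carbohydrate and oxidant defence genes leaned upward. Of 20 trehalose and glycogen genes 6 rose and 1 fell, with a median of 0.67. UGP1, which makes UDP-glucose, had 45.5 and 62.4 CPM in treated WT, against 19.2 and 18.2 CPM in untreated WT, a rise of 1.53 (SE 0.31). GLG1, which primes glycogen, rose by 1.53 (SE 0.34), and TPS1 and NTH1, which make and degrade trehalose, by 1.49 and 1.39. GAC1, a phosphatase subunit that activates glycogen synthase, fell by 1.23 (SE 0.33). Its call was lost with library totals, at -0.78, and without treated replicate 2, and over the 4 fits without 1 WT library it lay between -1.496 and -0.99. Of 27 oxidant defence genes 4 rose and none fell, with a median of 0.39. AHP1 and TSA1, peroxiredoxins, rose by 1.70 (SE 0.39) and 1.46 (SE 0.31). AHP1 had 168 and 216 CPM in treated WT, against 48.7 and 69.3 CPM in untreated WT, and lay between 1.44 and 1.99 without 1 WT library at a time, when 1 to 3 members of the list were called. AHP1 lost its call in 2 of these fits.

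Carbon and energy lists outside the citric acid cycle were mostly called at shares near or below those of all features tested. Of all features tested 8.77% rose and 11.6% fell. Rises made up 9.52% of the glycolysis list and 8.33% of the respiratory chain list. Falls made up 15% of the hexose transporter list and 10.5% of the gluconeogenesis list. Mitochondrial ribosomal proteins lay lower, with 1.33% rises and 2.67% falls. Of 21 glycolysis and fermentation genes 2 rose, PYK2, a minor pyruvate kinase, by 1.78 (SE 0.36) and HXK1, a hexokinase, by 1.24 (SE 0.36). Of 20 hexose transporters and sensors 3 fell, led by HXT2, which had 15.1 and 11.6 CPM in treated WT, against 60.1 and 79.0 CPM in untreated WT, so it fell by 2.38 (SE 0.31), and HXT5 at -1.604 (SE 0.43). Of 19 genes for glyoxylate cycle, gluconeogenesis and other carbon sources 1 rose and 2 fell, with a median of -0.51, which was 0.09 with library totals. YAT2, a carnitine acetyltransferase, rose by 2.17 (SE 0.39), while PCK1 and JEN1, for gluconeogenesis and lactate uptake, fell by 1.41 (SE 0.36) and 1.397 (SE 0.34). Of 16 peroxisomal oxidation genes PXA2, a fatty acid transporter, alone rose, by 1.76 (SE 0.50). Of 36 nuclear respiratory chain genes 3 rose and 3 fell, with COX5A at 1.30 (SE 0.44), QCR2 at 1.00 (SE 0.33), NDE1 at -1.58 (SE 0.31) and CYC7 at -2.68 (SE 0.55). Of 75 mitochondrial ribosomal proteins tested 1 rose (IMG1, 1.48, SE 0.43) and 2 fell (MRPL50, -1.72, SE 0.55, and MRPL33, -2.28, SE 0.71), and the median was -0.05 with TMM and 0.38 with library totals.

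Several of these lost their call. With library totals HXT5, PCK1, JEN1, NDE1, COX5A, MRPL50 and MRPL33 were not called. Without at least 1 of the WT libraries HXK1, HXT5, PCK1, JEN1, PXA2, COX5A, QCR2, IMG1, MRPL50 and MRPL33 were not. Over those fits HXK1 lay between 0.94 and 1.59, PXA2 between 1.20 and 2.81, QCR2 between 0.65 and 1.36, PCK1 between -1.75 and -1.10, JEN1 between -1.65 and -1.12 and HXT5 between -2.08 and -0.91. Calls were lost in 3 of the 4 fits for HXK1, PXA2, JEN1, COX5A, IMG1, MRPL50 and MRPL33, and in 2 for QCR2, PCK1 and HXT5.

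Sterol genes rose in part, while wall genes were called higher at a share near that of all features. Of 24 ergosterol genes 7 rose and none fell, with a median of 0.53. ERG26 rose by 1.59 (SE 0.38), ERG10, the first step of the mevalonate pathway, by 1.49 (SE 0.34) and HMG2, HMG-CoA reductase, by 1.38. Of 40 cell wall genes tested 4 rose (10%, against 8.77% of all features tested) and none fell, with a median of 0.28. GAS5, a glucan transferase, rose by 1.28 (SE 0.31) and HSP150, a wall protein, by 1.25 (SE 0.34). On leaving out each WT library in turn, 1 to 5 ergosterol and 0 to 3 wall genes were called, when ERG10 lay between 1.13 and 1.79 and HSP150 between 1.14 and 1.34. HSP150 lost its call in all 4 fits, and ERG26, ERG10 and GAS5 in 2.

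Phosphate genes moved in both directions. Of 24 tested 7 rose and 4 fell, with a median of 0.16. The falls were in uptake transporters and a secreted phosphatase. PHO84, the high-affinity phosphate transporter, had 14.4 and 10.1 CPM in treated WT, against 43.5 and 48.3 CPM in untreated WT, and fell by 1.91 (SE 0.36), PHO3, an acid phosphatase, by 1.64 (SE 0.41), and the transporters PHO89 and PHO90 by 1.56 and 1.54. The rises included PHM8, a nucleotide phosphatase, at 2.43 (SE 0.64), PHO8 of the vacuole, and VTC5 and VTC2, of the vacuolar polyphosphate polymerase, at 1.73 and 1.07. Without 1 WT library at a time 2 to 6 members rose and 2 or 3 fell, and PHM8 lay between 1.84 and 3.70. With library totals PHO84 was the 1 fall of the 4 that passed. PHM8 was not called in 2 of the 4 fits and PHO3 in 3. Of 30 iron genes 1 rose and 1 fell. CCC1, which loads iron into the vacuole, rose by 2.10 (SE 0.52), and TIS11, a zinc finger protein for mRNA decay in iron shortage, fell by 2.06 (SE 0.69), where TIS11 was not called with library totals or in any fit without 1 WT library, and CCC1 not without treated replicate 1 or untreated replicate 1, at values between 1.92 and 2.31 over the 4 fits.

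Within the TORC1 network itself, 6 of 57 genes rose and 2 fell, with a median of 0.21. The share of rises, 10.5%, was near the 8.77% of all features tested. Falls made up 3.51%, against 11.6% of all features tested. NPR1, the kinase that controls permease traffic and is held inactive by TORC1, had 33.1 and 32.0 CPM in treated WT, against 9.52 and 8.32 CPM in untreated WT, and rose by 1.87 (SE 0.28, adjusted p = 0.00049). TOR1 rose by 1.16, MSN4 and MSN2, the stress activators, by 1.13 and 0.91, and STB3, a repressor of assembly genes, by 1.33 (SE 0.38). TOD6, which binds the PAC motif and represses assembly genes, had 0.602 and 1.598 CPM in treated WT, against 11.7 and 12.9 CPM in untreated WT, and fell by 3.46 (SE 0.48). IFH1, the coactivator of ribosomal protein genes, fell by 1.04 (SE 0.26). With each WT library left out in turn, 1 to 4 members rose and 1 or 2 fell, STB3 lay between 1.04 and 1.64, and IFH1 between -1.14 and -0.96. STB3 lost its call in 3 of these fits and IFH1 in 2. IFH1 was not called with library totals.

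Cell cycle and cell type lists held few calls. Of 26 cyclins and inhibitors 1 rose, CLN1 by 1.02 (SE 0.34). Of 11 histone genes 1 fell, HHF1 by 1.19 (SE 0.35), and of 41 replication genes 1 rose, RFA1 by 1.87 (SE 0.31), and 1 fell, ORC4 by 1.95 (SE 0.43). Of 23 early meiosis genes tested SPO13 fell, with 0 counts in both treated libraries and 12 and 20 in untreated WT, at least 19.0-fold lower against a floor of 3 counts over the group. Of 22 haploid mating genes and 2 alpha-specific genes tested none was called, and of 7 a-specific genes MFA2 fell, by 1.63 (SE 0.53). With library totals CLN1, HHF1, ORC4 and MFA2 were not called, and without at least 1 WT library each of these and SPO13 lost its call. The medians of these 7 lists lay between -0.08 and 0.57, and those of histones, cyclins, meiosis and haploid mating were above 0 with library totals.

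Few snoRNAs changed. Of 68 snoRNAs tested 2 rose and 6 fell, with a median of -0.14. snR30, an H/ACA RNA needed for 18S processing, had 10473 and 9268 CPM in treated WT, against 2140 and 3054 CPM in untreated WT, and rose by 1.93 (SE 0.39, adjusted p = 0.0035). It is longer than the selected RNA, so these are counts of fragments. snR83 rose by 0.95 (SE 0.28). The falls were snR60 (-3.01, SE 0.58), snR55 (-2.60, SE 0.65), snR39B (-2.32), snR58 (-2.18), snR69 (-1.77) and snR87 (-1.48). The snoRNA snR58 had 187 and 138 CPM in treated WT, against 873 and 593 CPM in untreated WT. Of 5 spliceosomal RNAs and 9 other non-coding RNAs tested none was called at this depth and spread.

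Ty elements held 20.5% and 26.8% of all assigned counts in treated WT, against 11.003% and 13.7% in untreated WT. Of 49 Ty features tested 1 rose, YDR170W-A by 1.10 (SE 0.32), and none fell, while the median was 0.43. A read that aligned to several copies was counted at each, so copies of an element are not independent. Protein-coding genes held 13.6% and 16.5% of counts in treated WT, against 7.59% and 11.4% in untreated WT. rRNA features held 19.99% and 17.6% in treated WT, against 39.9% and 32.5% in untreated WT. Most of this share was 5S reads, counted at each copy. In untreated replicate 1, RDN5-1 held 3119900 and RDN5-6 held 3118992 of 16173246 counts. The rRNA share is thus raised by repeated counting and says little of other rRNA. For each class the exact permutation test of 2 against 2 libraries cannot go below p = 0.333. Of 5 rRNA features tested 4 fell. They were the 5S copies RDN5-1 and RDN5-6, at -1.5001 each (SE 0.44), and the copies of the rRNA precursor RDN37-1 and RDN37-2, at -1.47 and -1.45. The copies of each share reads, so the 4 calls are not independent, and the RDN37 calls were lost with library totals and without treated replicate 2 or untreated replicate 1. Of 31 mitochondrial features 2 tRNAs fell, tD(GUC)Q by 1.65 (SE 0.46) and tS(UGA)Q2 by 1.24 (SE 0.39), and none rose. Without 1 WT library at a time, the calls of snR83 and YDR170W-A were lost in all 4 fits. Those of RDN5-1 and RDN5-6 were lost in 3, and those of snR55 and both mitochondrial tRNAs in 2. Over the 4 fits snR55 lay between -2.73 and -2.48, snR83 between 0.82 and 1.08 and YDR170W-A between 1.02 and 1.19. RDN5-1 and RDN5-6 lay between -1.89 and -0.98, and tD(GUC)Q between -2.13 and -1.25. Of the mitochondrial tRNAs tS(UGA)Q2 was not called with library totals.

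The 43 lists hold 1290 of the features tested, with 153 rises and 288 falls. Outside them and outside nuclear tRNA, 4561 features were tested, of which 383 rose and 275 fell. Most rises thus lay outside the lists, but so did most of the 5851 features tested outside nuclear tRNA. Of all features tested 8.77% rose and 11.6% fell. GFD2 (YCL036W, chromosome III, 59026 to 60726), a poorly characterised gene, had 0.258 and 0.382 CPM in treated WT, against 8.54 and 12.4 CPM in untreated WT, the largest fall by rule at -4.99 (SE 0.65). YBL028C, an uncharacterised gene, had 0.172 and 0.347 CPM in treated WT, against 3.83 and 8.71 CPM in untreated WT, and fell by 4.54 (SE 0.66). POC4, a proteasome chaperone, fell by 3.89 (SE 0.52), and MAE1, mitochondrial malic enzyme, by 3.77 (SE 0.46), though MAE1 overlaps YKL030W.

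Some genes outside the lists were chosen after their values were seen. ALT1, an alanine transaminase, had 89.7 and 131 CPM in treated WT, against 9.26 and 9.04 CPM in untreated WT, and rose by 3.59 (SE 0.34). GCV2 and GCV1, which break down glycine, rose by 2.93 (SE 0.44) and 2.37 (SE 0.40), CHA1, which breaks down serine and threonine, by 2.43 (SE 0.35), ARO10, a decarboxylase of amino acid breakdown, by 2.68 (SE 0.45), and GUD1, guanine deaminase, by 3.07 (SE 0.34). RNY1, a vacuolar RNase, rose by 2.59 (SE 0.43). Among the falls, MTR4, the helicase that hands RNA to the nuclear exosome, fell by 2.96 (SE 0.31), NOC3, of 60S assembly, fell by 3.08 (SE 0.35), TRZ1, which trims tRNA ends, by 3.11 (SE 0.47), HPT1, for purine salvage, by 2.34 (SE 0.34) and RAS1, a GTPase of nutrient signalling, by 2.26 (SE 0.47).

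A group at 0 marked 10 features called. ATG38, a subunit of the autophagy lipid kinase, had 64 and 58 counts in treated WT and 0 in both untreated libraries, so it was at least 22.9-fold higher against a floor of 3 counts over the group. RMR1 was at least 18.9-fold, YIL046W-A at least 14.2-fold, YGL258W-A at least 9.37-fold, RTC2 at least 6.37-fold and YOL164W-A at least 4.87-fold higher. Besides SPO13 and ADE2, HUG1, a checkpoint gene, was at least 13.04-fold lower and YMR316C-A, which overlaps DIA1, at least 26.1-fold lower. These bounds cover counting error only.

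Feature length and count level moved with the share called. In 5 equal bins of protein-coding features by length, 2.96% of the shortest rose and 9.34% fell, while 12.8% of the longest rose and 8.99% fell. In 5 equal bins by mean level, 1.17% of the lowest rose and 3.504% fell, against 19.3% and 10.97% of the highest. The part of length or level in the counts of rises and falls was not tested. By position, the bin of genes nearest a chromosome end had 12.6% rises, against 7.82% in the bin farthest from one. Chromosome IX, with the DAL genes, had 15% rises in 200 genes and chromosome VI 14.8% in 115. Among the protein-coding features tested there were 27 runs of at least 3 neighbours called in the same direction. Features of other classes lying between them were passed over. Besides the DAL runs, PAR32, GLT1, UGA3 and UGX2 on chromosome IV rose together by 1.27 to 2.58, and RPA43, RPA190 and YOR342C on chromosome XV fell by 2.34 to 3.23. UTP9, RIX1 and AIM18 on chromosome VIII fell by 1.87 to 3.77.

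The response was set beside that of ubc9-1, the most similar comparison, with which it shares no library. In ubc9-1, 51 features rose with rapamycin (0.834% of those tested) and 40 fell (0.654%). Of the 536 features called higher in WT, 46 were called higher in ubc9-1 and 460 had a positive estimate there (85.8%), with medians of 1.43 in WT and 0.42 in ubc9-1. Of the 712 called lower in WT, 40 were called lower in ubc9-1 and 625 had a negative estimate (87.8%), with medians of -1.92 in WT and -0.68 in ubc9-1. Across all features tested 66.1% had the same sign. Choosing features on their WT call favours larger WT values, so these medians are no test of a difference between strains. The estimate was farther from 0 in WT than in ubc9-1 in 71.7% of all features tested and in 64.9% of those not called in WT, a description with no test. Across the 6115 features the Pearson correlation of the WT and ubc9-1 responses was 0.42 and the Spearman correlation 0.45, a description over features that are not independent.

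The test of the difference itself, the WT response minus the ubc9-1 response in the same fit, called 10 features (0.164% of those tested), with 862 at an unadjusted p under 0.05. DAL4 rose by 3.71 in WT and had an estimate of 0.94 in ubc9-1, a difference of 2.77 (SE 0.49, adjusted p = 0.0445), and ADE17 rose by 2.33 in WT and had -0.40 in ubc9-1, a difference of 2.73 (SE 0.49, adjusted p = 0.0475). LTV1 fell by 3.91 in WT and had -1.23 in ubc9-1 (difference -2.68, SE 0.44), and NOP8 fell by 3.78 in WT and had -0.96 in ubc9-1 (difference -2.82, SE 0.50). EFB1 fell by 4.05 in WT and had 0.07 in ubc9-1 (difference -4.12, SE 0.52, adjusted p = 0.00241), but its feature holds snR18, so mRNA and snoRNA fragments are not separated. The others were 4 snoRNAs, which fell in WT and had positive estimates in ubc9-1, and tS(AGA)D3, a serine tRNA gene. The number called depended strongly on the fit, between 4 and 31 when 1 library of the 8 was left out and 126 with DESeq2.

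**Figure D5:**
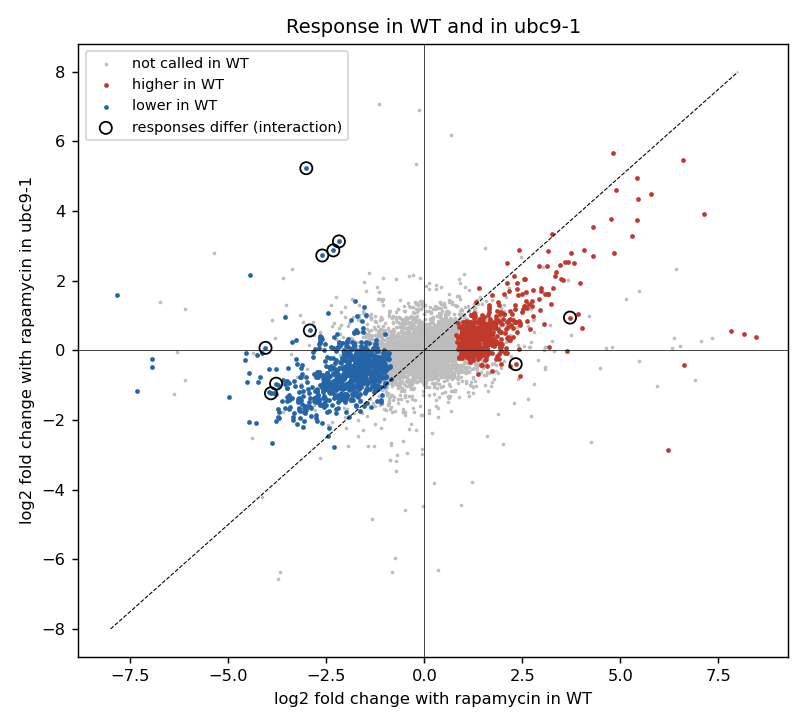
Each point is 1 of 6115 features, with the log2 fold change with rapamycin in WT on the x axis and in ubc9-1 on the y axis. Red was called higher and blue lower in WT, grey was not called in WT, circles mark the 10 features whose responses differed, and the dashed line is equality. Most coloured points lie on the WT side of equality, which their choice on the WT call favours.

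Stability differed by size of change. Of the 1248 features called, 444 kept their call in every fit without 1 WT library. Of the 128 features named by rule, 75 did so, and 100 kept their call with library totals. The 30 largest changes by rule were in both sets.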

How the data were processed

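RNA of 50 to 100 nt from 8 libraries was counted, and the 4 WT libraries carry the comparison described here. Per the submitters' processing notes, build R64 was used with the tools TopHat2 2.0.13 and featureCounts 1.4.6-p3. Per the file headers, the deposited values are whole-number counts of paired fragments per gene, where multi-mapping reads were counted at every place they aligned and strand was ignored. The deposited CPM values differed from CPM of those counts by at most 4.4e-10 and served one alternative, limma 3.58.1 on log2(CPM + 0.5), where the deposited CPM were put on a log2 scale. Symbols, overlaps, introns and promoters came from the RefSeq annotation of R64, in which 6048 of 7126 features had a locus tag. Of the features 1420 overlap another and 395 are at 0 in all libraries. Overlaps not given above include those of LEU4, LEU9, ARO9, HIS3, GRE2, UGP1, HXK1, IFH1, GLN4, DUS3 and snR60. Without strand, reads over a shared stretch cannot be told apart.

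The counts were fitted with edgeR 4.0.16 in R 4.3.3 (quasi-likelihood F test, TMM, filterByExpr with a minimum count of 10), with all 8 libraries and 1 coefficient for each of 4 groups. The fit had a common dispersion of 0.0926, 4 residual and 9.82 prior degrees of freedom. P-values were adjusted by Benjamini-Hochberg over all features tested and called at 0.05. Standard errors (SE) are the absolute log2 fold change over the square root of F and are approximate. A group at 0 was set to 3 counts, which covers counting error only. Features named are the 15 largest rises and 15 largest falls called outside nuclear tRNA, at a mean count of 50 or more over the WT libraries and without overlap between groups, and the 2 highest and 2 lowest called members of each of 43 lists and of each non-coding class. Any other member named was picked once its values were known. The comparison and lists were chosen with earlier results of these data known. Alternatives were other scalings, no filter, DESeq2 1.42.0, WT libraries alone, a replicate block, features without overlap, limma, TMM factors from protein-coding features (chosen after seeing the data) and leaving out each library. Differences between genes in length were not corrected. Some members counted in the lists are not reported here by name.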

Additional observations from a re-analysis of the deposited data

Results flagged for a closer look

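The response to rapamycin differed between WT and ubc9-1 in 10 features by the interaction test of the edgeR fit, and each is given as the WT response minus the ubc9-1 response on the log2 scale. The snoRNA snR60 differed by -8.24 (SE 0.97, adjusted p = 0.00151), with 35 and 16 counts in treated and 104 and 131 in untreated WT, and 50 and 66 counts in treated and 0 and 4 in untreated ubc9-1, so it rests on few counts in ubc9-1. The snoRNA snR58 differed by -5.31 (SE 0.58), with 4338 and 3958 counts in treated and 9813 and 10695 in untreated WT, and 3314 and 3738 counts in treated and 294 and 858 in untreated ubc9-1. snR39B differed by -5.19 (SE 0.55) and snR55 by -5.33 (SE 0.93), where treated ubc9-1 replicates held 918 and 124 counts of snR55. EFB1 differed by -4.12, the tRNA gene tS(AGA)D3 by -3.49 (SE 0.61), NOP8 by -2.82 and LTV1 by -2.68. ADE17 differed by 2.73 and DAL4 by 2.77. In all 10 the WT response was called. In untreated cells EFB1 had 19656 and 19759 counts in WT and 1090 and 2177 in ubc9-1. These counts cannot be assigned to mRNA alone, since EFB1 overlaps the snoRNA snR18.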

How the results depend on the processing

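The main fit called 536 features higher, 712 lower and 10 in the interaction. With TMM factors from snoRNAs these were 349, 374 and 23, with library totals 583, 265 and 5, and with limma on CPM 650, 273 and 5. DESeq2 size factors and TMM factors from protein-coding features each gave 5 in the interaction, no low-count filter gave 52 and the DESeq2 Wald test 126. Leaving out 1 library at a time gave 241 to 606 higher, 325 to 777 lower and 4 to 31 in the interaction. The replicate block gave 890 higher, 997 lower and 395 in the interaction. The labels do not say that a number marks a shared batch. Deviations of same-numbered libraries correlated at 0.142 to 0.298 over the 6 pairs of groups, and replicate 1 had the lower TMM factor in all 4 groups. With only 2 numbers, whether they pair the libraries is not known. Of the 128 features named by rule, all kept their call under the block, 127 with DESeq2, 100 with library totals and 97 with snoRNA factors. None changed direction in a setting run. Without treated replicate 2, 83 kept their call, against 94 without treated replicate 1, 94 without untreated replicate 1 and 109 without untreated replicate 2. The cause of these moves was not tested. With 2 libraries in a group and low counts in many genes, small changes were not detectable.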
